A study of Apis mellifera with 24 samples.

Results

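The 5 antimicrobial peptide genes of the honey bee described here are abaecin (GB47318), apidaecin (GB47546), hymenoptaecin (GB51223), defensin-1 (GB41428) and defensin-2 (GB47618). They were taken by their identifiers of official gene set 3.2 from 15314 identifiers counted in worker brains. The pairing of names with identifiers was taken as given, because the deposited tables give identifiers alone. It could not be checked here against an annotation of that gene set. All 5 identifiers were listed in the expression table, and 3 of them (apidaecin, hymenoptaecin and defensin-1) passed the filter on low counts that left 9316 genes for testing. Abaecin and defensin-2 did not pass it and are described by their counts.

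Antimicrobial peptides are short secreted peptides of innate immunity that kill or disable bacteria in the haemolymph. In insects their genes are switched on by NF-kappaB factors at the end of the Toll and Imd pathways, mainly in fat body and blood cells. Abaecin and apidaecin are proline-rich peptides, hymenoptaecin is rich in glycine, and the defensins are held together by disulphide bridges. Defensin-1 is also known as royalisin, a component of royal jelly made by head glands of workers, while defensin-2 is known from the immune response of the body.

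Each library held polyA RNA of the brain of 1 worker, and 24 workers fell into 8 groups of 3. In each of 4 lineages 3 workers were labelled Reproductive and 3 Sterile. Lineages L888 and L894 came from Afr x Eur crosses and lineages L875 and L882 from Eur x Afr crosses, with the mother given first, Afr for Africanized and Eur for European bees. L888 and L875 formed block A and L894 and L882 block B. Workers of both statuses had lived about 18 days in colonies without a queen, a state in which some workers activate their ovaries, and no treatment or infection is named in the labels. Each lineage stood for 1 family, so that cross direction and family cannot be told apart. Brains were freeze-dried and dissected in a solution that preserves RNA.

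Libraries held 5186553 to 16712863 counts, and no pair of libraries was identical. The 10 leading genes by abundance took 26.9 ± 18.8% of all counts in the 12 reproductive bees and 44.9 ± 18.1% in the 12 sterile bees (mean and SD). Over all bees this top-10 share ran between 3.37 and 70.2%. None of the 5 peptide genes was among those 10, and the identifiers of the 10 genes are not paired with names in the sources used here. No identifier of a brain, gland or fat body marker is paired with a name either, so the labelled tissue could not be checked against markers. In headers of the allele tables the letters A and I stand the other way round for L888 than for the other lineages, and status was taken from the sample labels throughout. The labels do not number the bees, so the numbers below only name them.

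Hymenoptaecin was low in most brains and very high in a few. In 5 of 24 bees it reached 130.3 to 7698 CPM (counts per 1000000 counts of the library, scaled with TMM factors), and in the other 19 bees it lay between 1.49 and 14.7 CPM. The lowest of the 5 and the highest of the 19 were separated by an 8.84-fold step. A further 10.5-fold step separated the highest bee from the second, and the next largest step between neighbouring bees was 4.20-fold.

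The highest value belonged to bee 3 of the sterile L875 group, with 73160 hymenoptaecin counts or 0.872% of its whole library. The others above the step were reproductive L882 bee 1 with 736 CPM, reproductive L875 bee 3 with 649 CPM, sterile L875 bee 1 with 154 CPM and sterile L882 bee 1 with 130.3 CPM. Thus 2 of the 5 were reproductive and 3 were sterile, 3 were of lineage L875, 2 of lineage L882 and 0 of lineages L888 and L894. Both lineages with such bees were Eur x Afr crosses, and they lay in different blocks. In every one of the 4 groups that held such a bee, a sister of the same status stood below 4 CPM. Because whole brains were measured, more cells with the transcript and more transcript per cell cannot be told apart.

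By group, hymenoptaecin stood at 3.36, 6.62 and 1.49 CPM in reproductive L888 bees, against 5.02, 7.96 and 4.36 CPM in sterile L888 bees. In L875 the reproductive bees had 2.96, 2.43 and 649 CPM, against 154, 3.43 and 7698 CPM in the sterile bees. The values within each L875 group spanned 267-fold among reproductive and 2246-fold among sterile sisters, while those of the L888 groups spanned 4.43-fold and 1.82-fold.

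In L894 hymenoptaecin was 4.97, 2.05 and 14.7 CPM in reproductive bees, against 8.83, 5.26 and 8.75 CPM in sterile bees. In L882 it was 736, 2.02 and 12.3 CPM in reproductive bees, against 130.3, 2.59 and 2.81 CPM in sterile bees. Reproductive and sterile values overlapped in all 4 lineages.

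**Figure D1:**
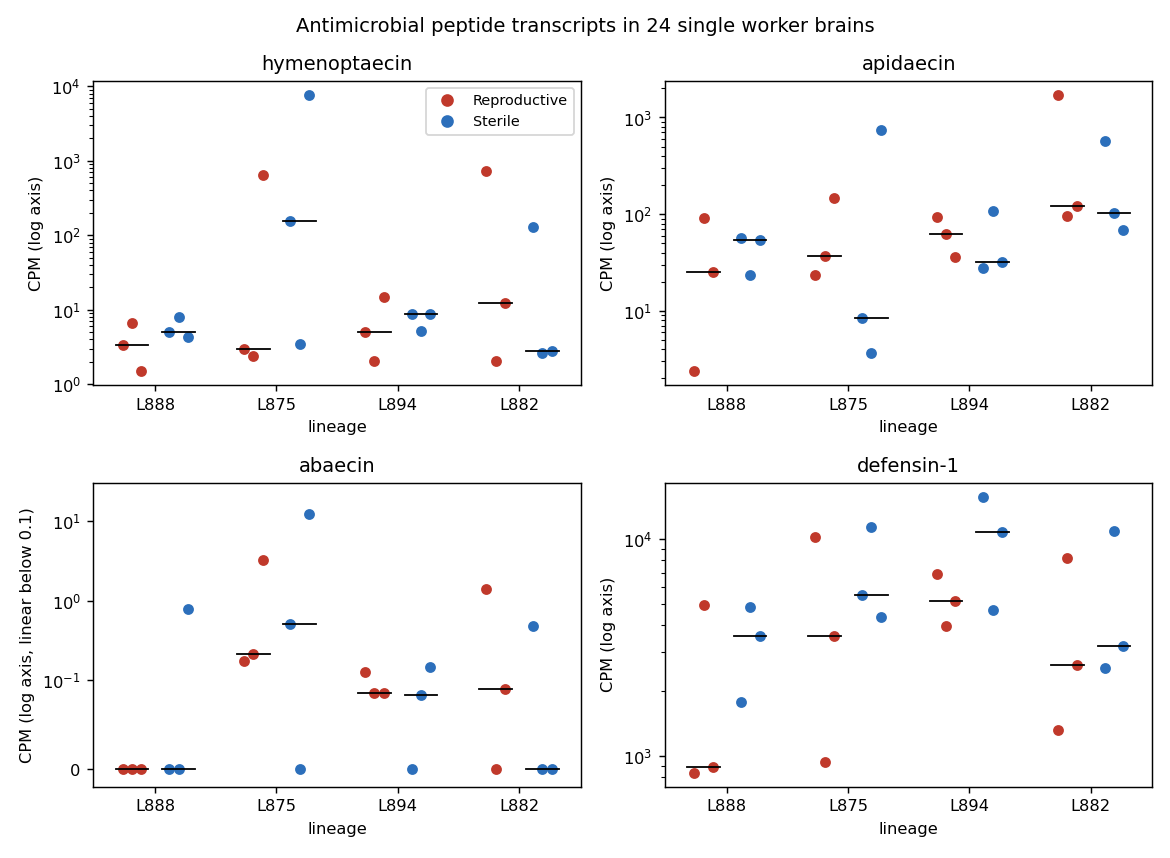
Level of hymenoptaecin, apidaecin, abaecin and defensin-1 in each of 24 worker brains, in CPM by lineage and status, with 1 point per bee and a short line at each group's median. Axes are logarithmic, and that of abaecin is linear near 0. Hymenoptaecin reaches 130.3 to 7698 CPM in 5 bees of L875 and L882 and lies at 1.49 to 14.7 CPM in the others, while defensin-1 lies at 832 to 15737 CPM in all 24 bees.

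Abaecin, which in other insects enhances the action of pore-forming peptides, was found at trace level. It had at least 1 count in 14 of 24 bees and 0 in the other 10, where the 3 counts that a zero allows correspond to 0.195 to 0.395 CPM. These floors cover counting error only. The highest bee had 115 abaecin counts (12.1 CPM), the same sterile L875 bee 3 that was highest for hymenoptaecin. Reproductive L875 bee 3 followed with 29 counts (3.19 CPM) and reproductive L882 bee 1 with 14 counts (1.42 CPM).

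All 5 bees with high hymenoptaecin had abaecin counts, 4 to 115 in number. Among the other 19 bees 9 had abaecin counts, and those ranged from 1 to 9. The highest of these 19, sterile L888 bee 3 with 9 counts, stood at 4.36 CPM for hymenoptaecin. In lineage L888 the other 5 bees had no abaecin count, among them all 3 reproductive bees. By status, 8 of 12 reproductive bees and 6 of 12 sterile bees had at least 1 abaecin count.

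Apidaecin, a peptide that enters bacteria and blocks their protein synthesis, was detected in all 24 bees. GB47546 stood at 2.37, 92.0 and 25.4 CPM in reproductive L888 bees, against 57.2, 23.2 and 54.3 CPM in sterile L888 bees. In L875 it was 23.4, 36.5 and 146 CPM in reproductive bees, against 8.52, 3.64 and 746 CPM in sterile bees. Here too sterile bee 3 was the highest of its lineage, although the lowest 2 sterile L875 bees lay below every reproductive sister.

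In L894 apidaecin was 93.8, 62.9 and 35.9 CPM in reproductive bees, against 27.6, 108 and 32.1 CPM in sterile bees. In L882 it was 1715, 94.8 and 121 CPM in reproductive bees, against 571, 102 and 68.6 CPM in sterile bees. L882 thus held the highest bee of all, and no L882 bee was below 68.6 CPM. Values of both statuses overlapped in each of the 4 lineages, as for hymenoptaecin.

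Of the 5 bees with high hymenoptaecin, 4 were also the 4 highest for apidaecin, at 146 to 1715 CPM, while the highest of the other 19 bees reached 121 CPM. The fifth, sterile L875 bee 1, had only 8.52 CPM of apidaecin and ranked 22 of 24. With its reads summed over the 3 identifiers described below, that bee stood at 57.6 CPM and ranked 18. Among the 19 bees with low hymenoptaecin, the levels of both genes gave Pearson's r = 0.00 after lineage means were removed (permutation p = 0.996, Spearman's rho = -0.02, p = 0.922). Within those 19 bees r was 0.19 in block A and -0.29 in block B. The 19 bees were chosen by hymenoptaecin itself, which narrows its range to 1.49 to 14.7 CPM and limits what r can show. Over all 24 bees, with the 5 high ones included, r was 0.69 (not tested).

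**Figure D2:**
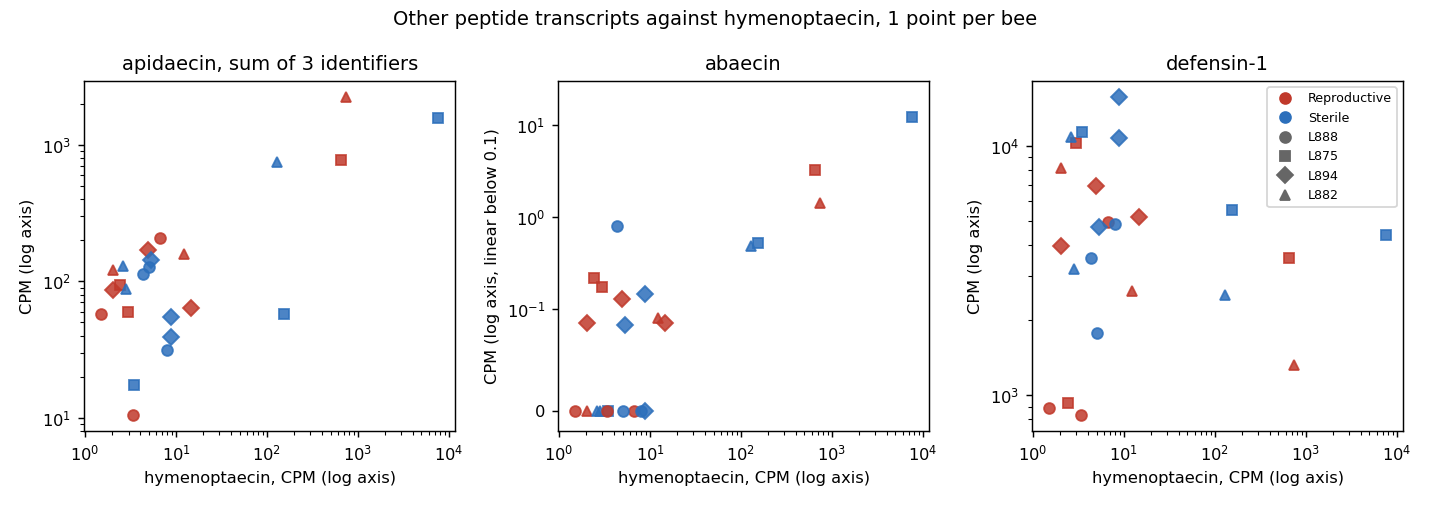
Level of apidaecin (sum of 3 identifiers that appear to share reads), abaecin and defensin-1 (vertical axes) against hymenoptaecin (horizontal axes), all in CPM on log axes, with that of abaecin linear near 0 and 1 point per bee. The 5 bees at 130.3 CPM of hymenoptaecin or more all have abaecin counts and 4 of them have the 4 highest apidaecin levels, while their defensin-1 levels of 1321 to 5524 CPM lie inside the range of the other 19 bees.

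The apidaecin count itself is uncertain, because its reads appear to be divided among several identifiers. GB47546 had a count that was not whole in all 24 bees, whereas the counts of the other 4 peptide genes were whole in every bee. Added to the counts of GB46236 and GB51306, it came to a whole number in 24 of 24 bees (tolerance 0.02). Among all pairs of the 1966 other identifiers whose counts were not whole in at least 12 bees, this pair alone did so, and the next best pair reached 8 bees. Both identifiers are unnamed in the sources used here and were picked from the counts themselves.

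The division of the summed reads varied among bees and was not tested between lineages, and the range of L888 overlapped those of L875 and L894. In L888 GB47546 held 22.7 to 74.2% of the sum, against 14.8 to 47.4% in L875. In L894 it held 55.1 to 74.4%, against 76.0 to 78.7% in all 6 bees of L882. L882 was therefore the lineage with the narrowest division, and L875 the one in which GB51306 took most, 52.6 to 84.98%.

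GB46236 had a smaller share that fell into low and high bees. It held at most 0.377% in 5 of 6 L888 bees, with 9.56% in sterile L888 bee 2, and at most 0.331% in L875. In L894 it held 9.39 to 11.8% in 3 bees (reproductive bee 2 and sterile bees 1 and 2) and 0 to 1.96% in the other 3, and in L882 it held 6.34 to 8.68%. Sequence differences between the parental copies of these identifiers could not be examined, so their part in this division was not tested.

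**Figure D3:**
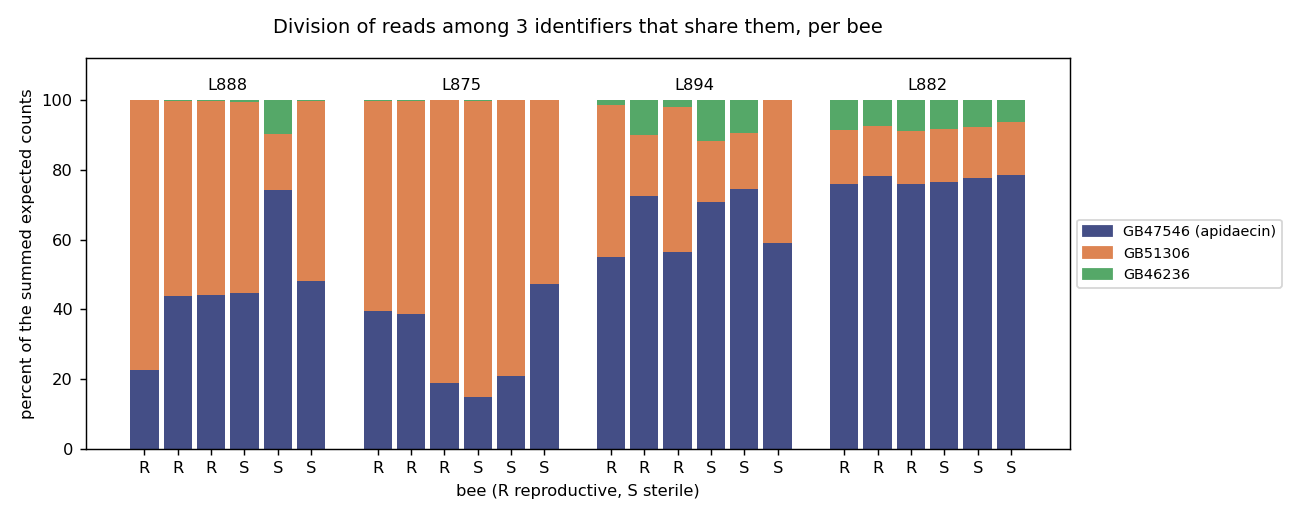
Division of the summed apidaecin reads among the identifiers GB47546, GB46236 and GB51306 in each bee, in percent of their sum, with bees ordered by lineage and status. GB47546 holds 76.0 to 78.7% in all 6 L882 bees and 14.8 to 47.4% in the L875 bees.

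The sum of the 3 identifiers had a median of 108 CPM in reproductive bees (range 10.4 to 2257) and of 100.03 CPM in sterile bees (range 17.4 to 1575). The 4 highest bees in the sum were the same as for GB47546. Fitted in place of GB47546, the sum differed between reproductive and sterile bees by 0.25 on the log2 scale (SE 0.68, 95% interval -1.14 to 1.65, edgeR adjusted p = 0.9997).

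Defensin-1 was well covered in every brain, at 832 to 15737 CPM, with at least 12625 counts behind each value. In L888 it stood at 832, 4947 and 886 CPM in reproductive bees, against 1778, 4855 and 3565 CPM in sterile bees. In L875 it stood at 10269.6, 933 and 3565 CPM in reproductive bees, against 5524, 11366 and 4390.5 CPM in sterile bees.

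In L894 defensin-1 was 6905, 3960.0 and 5203 CPM in reproductive bees, against 15737, 4730 and 10817 CPM in sterile bees. In L882 it was 1321, 8145 and 2615 CPM in reproductive bees, against 2529, 10903 and 3205 CPM in sterile bees. The lowest bee of each lineage was reproductive, and the highest was sterile in L875, L894 and L882 and reproductive in L888. Values of both statuses overlapped in all 4 lineages.

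Bees with high hymenoptaecin did not stand out for defensin-1. The 5 bees had 1321 to 5524 CPM, with a median of 3565 CPM, and the other 19 had 832 to 15737 CPM, with a median of 4855 CPM. Over all 24 bees the levels of apidaecin and defensin-1 gave r = -0.21 after lineage means were removed (permutation p = 0.413, rho = -0.32, p = 0.167). The value was 0.02 in block A and -0.69 in block B. It was -0.49 (permutation p = 0.0591) without sterile L875 bee 3 and reproductive L888 bee 1. These 2 bees lay farthest from the median of apidaecin once lineage means were removed. For hymenoptaecin and defensin-1 in the 19 bees with low hymenoptaecin, r was 0.26 (permutation p = 0.239, rho = 0.35, p = 0.115). There the value was 0.67 in block A and -0.10 in block B. Without reproductive L882 bee 3 and reproductive L894 bee 2, the 2 farthest from the hymenoptaecin median on that scale, it was 0.49 (permutation p = 0.0305). The 19 bees were chosen by hymenoptaecin itself, which limits what these values can show. Over all 24 bees r of hymenoptaecin with defensin-1 was -0.17 (not tested).

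The level of defensin-1 moved with the make-up of the library. Across 24 bees, with lineage means removed, log2 CPM of defensin-1 and the top-10 share gave r = 0.86 and rho = 0.84. The permutation p of r was 1e-05, the smallest that 100000 permutations can give, and 6e-05 after adjustment over 6 relations. The value was 0.88 in block A and 0.84 in block B. It was 0.81 without reproductive L875 bee 2 and sterile L882 bee 2, the 2 farthest from the defensin-1 median with lineage means removed. Scaled to total counts alone, without TMM factors, r was 0.61 (permutation p = 0.00375). Of 9316 genes tested, 29 (0.311%) had an r with this share at least as high.

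Apidaecin gave r = -0.37 with this share (permutation p = 0.123, adjusted 0.370), with -0.27 in block A and -0.56 in block B. Without sterile L875 bee 3 and reproductive L888 bee 1, left out by the same rule, r was -0.51 (permutation p = 0.0436). Hymenoptaecin gave 0.23 in the 19 bees with low levels (permutation p = 0.358, adjusted 0.496), with 0.63 in block A and -0.05 in block B. Without reproductive L882 bee 3 and reproductive L894 bee 2 the value for hymenoptaecin was 0.49 (permutation p = 0.0450). Over all 24 bees, with the 5 high ones included, hymenoptaecin gave r = -0.26 with this share (not tested). Of the 6 relations, that of defensin-1 with the top-10 share alone passed after adjustment.

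**Figure D4:**
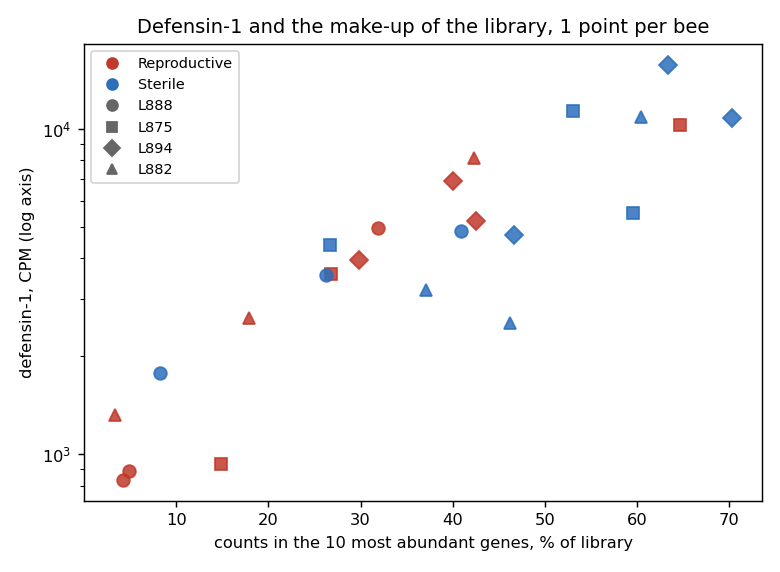
Level of defensin-1 (vertical axis, CPM, log scale) against the top-10 share of counts in percent (horizontal axis) in 24 brains, with 1 point per bee, coloured by status and marked by lineage. Bees with a small share have low defensin-1, from 832 CPM, and the bee with the highest level of 15737 CPM has a share of 63.3%.

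Defensin-2 had very few counts in these brains. It had 1 to 8 counts in 8 of 24 bees, 23 counts in all, and 0 in the other 16, where the floor of 3 counts corresponds to 0.189 to 0.522 CPM. The highest was reproductive L888 bee 1 with 8 counts (0.527 CPM), followed in counts by reproductive L875 bee 2 with 5. Counts were found in 5 of 12 reproductive bees and in 3 of 12 sterile bees. Of the 5 bees with high hymenoptaecin, 1 had a defensin-2 count, 2 in number.

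The comparison of reproductive with sterile workers is the main contrast of the design. None of the 3 tested peptide genes passed this comparison. In the fit over all 24 bees with lineage as a term, 0 of 9316 genes passed at an adjusted p of 0.05 in edgeR (0%). There 216 had an unadjusted p under 0.05. DESeq2 called 1 gene, which was neither hymenoptaecin nor defensin-1. It gave apidaecin no adjusted p, and abaecin and defensin-2 were not in its fit.

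Hymenoptaecin had a median of 4.16 CPM in reproductive bees and 6.61 CPM in sterile bees, with ranges of 1.49 to 736 and 2.59 to 7698 CPM. The fitted difference, reproductive minus sterile, was -0.40 on the log2 scale (SE 1.25, 95% interval -2.99 to 2.18, edgeR adjusted p = 0.9998). It was 0.87 without sterile L875 bee 3 and -2.68 (SE 1.27, adjusted p = 0.964) with the top-10 share as a covariate, and the interval spans differences of several-fold either way.

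Apidaecin had a median of 77.4 CPM in reproductive bees and 55.7 CPM in sterile bees, with ranges of 2.37 to 1715 and 3.64 to 746 CPM. Its fitted difference was -0.10 (SE 0.75, 95% interval -1.64 to 1.44, edgeR adjusted p = 0.9998). With the top-10 share as a covariate it was -0.88 (SE 0.67). Without sterile L875 bee 3 it was 0.95, and 4 other single bees also turned its sign when left out.

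Defensin-1 had a median of 3763 CPM in reproductive bees and 4793 CPM in sterile bees, with ranges of 832 to 10269.6 and 1778 to 15737 CPM. Its fitted difference was -0.64 (SE 0.39, 95% interval -1.45 to 0.16, unadjusted p = 0.114, edgeR adjusted p = 0.9998). With the top-10 share as a covariate the difference was 0.09 (SE 0.26).

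The 3 tested peptide genes had a median difference of -0.40 with 3 of 3 lower in reproductive bees, while with total counts alone as scaling apidaecin (0.20) and hymenoptaecin (0.040) were higher. Over all 9316 genes the median was 0.0055 and 48.4% were lower, and with total counts alone the median of all genes was 0.47, above the values of both peptide genes under that scaling. Without the filter on low counts, abaecin gave -0.88 (SE 0.92) and defensin-2 gave 1.004 (SE 0.90), both with an adjusted p of 0.9994 over 12472 genes.

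**Figure D5:**
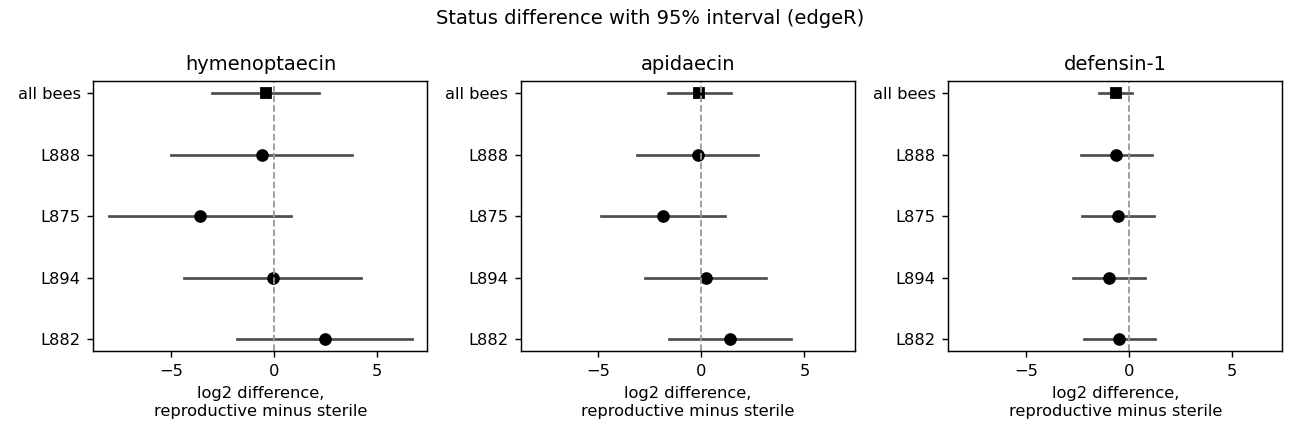
Fitted difference of each tested peptide gene, reproductive minus sterile, on the log2 scale, over all bees and within each lineage, with 95% intervals from edgeR. All intervals include 0, and the widest belong to hymenoptaecin, whose difference within lineages runs from -3.58 in L875 to 2.47 in L882.

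Within single lineages 0 genes passed in edgeR (0% in each), with 140 to 521 genes at an unadjusted p under 0.05. DESeq2 called 2 genes in L875, 1 in L882, 0 in L888 and 5 in L894. Neither hymenoptaecin nor defensin-1 was among them. DESeq2 gave apidaecin no adjusted p in any of these fits, which left out abaecin and defensin-2. Hymenoptaecin differed by -0.60 in L888 (SE 2.10), -3.58 in L875 (SE 2.13), -0.06 in L894 (SE 2.06) and 2.47 in L882 (SE 2.04). In L875 and L882 those values carry the sign of the group with the highest single bee. Without sterile L875 bee 3 the L875 difference was 1.47, and without reproductive L882 bee 1 the L882 difference was -2.66.

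Apidaecin differed by -0.18 in L888 (SE 1.41), -1.88 in L875 (SE 1.45), 0.20 in L894 (SE 1.41) and 1.38 in L882 (SE 1.42). Defensin-1 differed by -0.61 in L888, -0.53 in L875, -0.96 in L894 and -0.46 in L882, each with an SE of 0.83. The test that the 4 status differences are equal gave F = 0.07 for defensin-1, 0.88 for apidaecin and 1.42 for hymenoptaecin, each with an edgeR adjusted p of 0.9998. In that test 0 of 9316 genes passed (0%), 269 had an unadjusted p under 0.05, and DESeq2 called 0.

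Levels across the 4 lineages were compared with status as a term. Hymenoptaecin differed between lineages in that test, with F = 9.47 and an edgeR adjusted p of 0.0208. In all, 373 of 9316 genes (4%) passed it, 1 of the 3 tested peptide genes among them. Its median was 4.69 CPM in L888, 78.9 CPM in L875, 7.003 CPM in L894 and 7.58 CPM in L882. Without sterile L875 bee 3 the adjusted p was 0.0565, without the whole of L888 it was 0.124, and without L894 it was 0.180. DESeq2 gave an adjusted p of 9.23e-05, in a test that called 14.4% of all genes, while limma voom gave 0.453.

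Apidaecin gave F = 4.74 (edgeR adjusted p = 0.0880). It passed without lineage L875 (adjusted p = 0.0216) and without sterile L875 bee 3 alone (0.0255). With each bee left out in turn, its edgeR adjusted p ran up to 0.322. The median of GB47546 was 39.8 CPM in L888, 29.97 CPM in L875, 49.4 CPM in L894 and 111 CPM in L882. For the sum of the 3 identifiers the F was 4.26 and the adjusted p 0.105, with medians of 85.1, 76.8, 75.1 and 145 CPM in that order of lineages.

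Defensin-1 gave F = 2.36 (edgeR adjusted p = 0.236), and 0.03 with the top-10 share as a covariate. Its median was 2671 CPM in L888, 4957 CPM in L875, 6054 CPM in L894 and 2910 CPM in L882. The median top-10 share was 17.2% in L888, 39.9% in L875, 44.6% in L894 and 39.7% in L882. Without the filter on low counts abaecin passed the lineage test (F = 7.46, adjusted p = 0.0420 over 12472 genes, of which 2.77% passed), with 0 counts in 5 of 6 L888 bees and most of its counts in 2 L875 bees. Defensin-2 did not pass (F = 0.33, adjusted p = 0.863).

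Between single lineages none of 18 tests on the 3 peptide genes passed in edgeR, in the fit over all bees, while 7 had an unadjusted p under 0.05. Of all 9316 genes, 13.2 to 31.8% had an unadjusted p under 0.05 in the 6 comparisons. In block A the fitted difference L888 minus L875 was -8.07 for hymenoptaecin (SE 1.95, adjusted p = 0.0996, 0.14% of genes called). It was -4.78 without sterile L875 bee 3, and it passed without reproductive L875 bee 2 (adjusted p = 0.0453). With each bee left out in turn, its edgeR adjusted p ran from 0.0453 to 0.281. DESeq2 gave -8.07 with an adjusted p of 4.85e-06 (0.934% called). In block B the fitted difference L894 minus L882 was -4.45 (SE 1.67, adjusted p = 0.281, 0.107% called). It was -1.26 without reproductive L882 bee 1 and -0.79 with the top-10 share as a covariate.

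Across blocks, where block and lineage cannot be told apart, L894 minus L875 gave -7.40 for hymenoptaecin (SE 1.91, adjusted p = 0.0514, 1.41% called). This value lay next to the threshold. It passed in edgeR with RLE size factors (adjusted p = 0.0497), with the statuses of L888 exchanged (0.04996), without lineage L882 (0.0371) and without any 1 of 7 bees of L875 or L882 (lowest 0.0342). It was -4.20 without sterile L875 bee 3 and -4.08 with the covariate (adjusted p = 0.175). With each bee left out in turn, its edgeR adjusted p ran from 0.0342 to 0.207. DESeq2 gave -7.42 with an adjusted p of 1.78e-05 (3.89% called). L888 minus L882 gave -5.12 (SE 1.75, adjusted p = 0.124, 0.687% called), and an adjusted p of 0.0128 in DESeq2 (4.5% called). It was -2.04 without reproductive L882 bee 1, and it passed in edgeR without lineage L875 (adjusted p = 0.0423). The difference L882 minus L875 was -2.95 (SE 1.75, adjusted p = 0.376, 1.14% called) and L894 minus L888 was 0.67 (SE 1.52, adjusted p = 0.796, 12.1% called). The first was -0.18 without sterile L875 bee 3 and -5.53 without reproductive L882 bee 1, and the second was 3.54 with the covariate and 0.20 without reproductive L894 bee 3. In the order of lineage medians, L875, L882, L894 and L888, no neighbours passed the test for hymenoptaecin in the fit over all bees.

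For apidaecin the largest fitted difference was L888 minus L882, at -3.42 (SE 1.09, edgeR adjusted p = 0.104), followed by L894 minus L882 at -2.91 (SE 1.06, adjusted p = 0.272). Without reproductive L882 bee 1 these were -1.98 and -1.42, the second was -1.59 with the covariate, and the first passed without lineage L875 (adjusted p = 0.0364). The sum of the 3 identifiers gave -2.62 (SE 0.99, edgeR adjusted p = 0.156) and -2.61 (SE 0.98, adjusted p = 0.284) for these 2 differences. L882 minus L875 was 0.35 for the sum against 1.52 for GB47546, and L894 minus L888 was 0.0077 against 0.51. L888 minus L875 was -2.27 for the sum against -1.90, and L894 minus L875 was -2.26 against -1.39. For defensin-1 the largest difference was L894 minus L888, at 1.45 (SE 0.56, adjusted p = 0.0803), and it passed without reproductive L888 bee 2 (adjusted p = 0.0319). With each bee left out in turn, its edgeR adjusted p ran up to 0.168. With the covariate for library make-up that last difference was 0.06.

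Hymenoptaecin and apidaecin were among the genes that varied most between sisters of the same status. The standard deviation of log2 CPM within groups was 3.22 for hymenoptaecin, the second highest of 9316 genes. Apidaecin followed with 2.11 (rank 34) and defensin-1 with 1.13 (rank 272), while the median gene had 0.38. Abaecin had 1.54 and defensin-2 had 0.60, values that rest on few counts. The fitted biological coefficient of variation was 1.42 for hymenoptaecin (rank 7), 1.07 for apidaecin (rank 45) and 0.67 for defensin-1 (rank 288), against a median of 0.265.

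The genes most like each peptide gene across the 24 bees, by Pearson's r of log2 CPM less lineage means, are given as a description with no test. For hymenoptaecin these were GB51306 (0.73), which appears to share reads with apidaecin, then apidaecin itself (0.69) and GB40061 (0.68). For abaecin they were hymenoptaecin (0.87), GB51306 (0.81) and apidaecin (0.80). Abaecin was 0 in 10 bees and had 1 to 3 counts in 8 others, so these values rest mainly on the few bees with more counts. For apidaecin they were GB51306 (0.89), GB49175 (0.77) and GB50138 (0.75), and hymenoptaecin ranked 11. The 24 bees include the 5 that stand apart in hymenoptaecin, and the identifiers share libraries and, for GB51306, apparently reads.

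GB40061 spanned a narrow range, at 34.7 to 43.4 CPM in the 5 bees with high hymenoptaecin and 25.8 to 40.0 CPM in the other 19. GB49175 stood at 6.80 to 32.9 CPM in the 5 bees and at 3.50 to 18.3 CPM in the others. GB51306 stood at 48.9 to 828 CPM in the 5 bees and at 5.07 to 117 CPM in the others. For each of these 3 identifiers the ranges overlap.

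For defensin-1 the list was another: GB50115 (0.95), GB44549 (0.92) and GB53576 (0.92), the last 2 of which were among the 10 leading genes. Apidaecin and hymenoptaecin ranked 6196 and 5874 of 9315 genes in likeness to defensin-1, with r of -0.21 and -0.17. Defensin-2, with its 23 counts, was most like GB54280, GB51055 and GB41176 at 0.70 to 0.72, and in sparse counts such values carry little information.

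Reads assigned to the maternal or the paternal copy covered 3532 genes of reproductive and 3572 of sterile bees. None of the 5 peptide genes was among them in either table, so parental expression of these genes was not analysed here.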

How the data were processed

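Names of tools in the submitters' processing notes are HISAT2 and limma, without version or role, and no source used here names the counting tool, genome build or strand setting. Expected counts, which are estimated reads per identifier and bee, were deposited unscaled by the authors (87.3% of values whole). The deposited allele tables hold read counts per parental copy.

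Expected counts were rounded and filtered by status with filterByExpr. They were fitted with TMM factors in edgeR 4.0.16 (R 4.3.3) by quasi-likelihood, and p-values were adjusted by Benjamini-Hochberg over all genes tested (two-sided, threshold 0.05). DESeq2 1.42.0, limma 3.58.1, other size factors and filters, and subsets of bees served as alternatives. CPM for relations were on the log2 scale with a prior count of 2, and p-values came from 100000 two-sided permutations within lineages. Of 10 planned pairs those with abaecin or defensin-2 were not tested, since 10 and 16 of their 24 values were 0. Pairs with hymenoptaecin used the 19 bees below the lower of its 2 steps of more than 8-fold between neighbouring bees. That limit was chosen, and the separation of the bees was not tested. In addition, 3 relations with library make-up were added. These choices, limma voom for lineages, the summed apidaecin identifiers, and the scaling and left-out bees for relations were chosen after seeing the data. Scripts were tested on simulated counts with known changes. The genes, lists and tests were chosen with earlier results of these data known. Named genes are the 5 peptide genes and the 3 genes most like each, with GB46236 and GB51306 added after the counts were seen. Libraries of a group come from separate bees of 1 family. No identifier matched the RefSeq table (0 of the 5), and no sequence is shown.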

Additional observations from a re-analysis of the deposited data

Results flagged for a closer look

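Within each lineage the 6 bees were searched for a single value far from the others, by its gap to the nearest of them relative to the range of the 6 on the log2 scale (Dixon's test at 95%). Of 20 combinations of gene and lineage 4 exceeded it. The test assumes continuous values, so its rate of 1 in 20 does not hold for genes with many zeros. Where 5 bees tie at 0, any count in the remaining bee exceeds it. All 4 concern genes with few counts. Abaecin in L888 had 0.785 CPM (9 counts) in sterile bee 3 and 0 in the other 5 bees. In L894 abaecin was 0 in sterile bee 1 and 1 or 2 counts in each of the others, a gap of a single read. Defensin-2 had 0.358 CPM (5 counts) in reproductive bee 2 of L875 and 0 in its 5 sisters. In L888 defensin-2 had 0.527 CPM (8 counts) in reproductive bee 1 and at most 1 count in the others. Hymenoptaecin, apidaecin and defensin-1 exceeded it in no lineage. The search looks for a single bee, while L875 held 3 bees with high hymenoptaecin and L882 held 2. A gap to the nearest bee therefore does not measure how far those bees lie from the rest.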

How the results depend on the processing

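Log2 differences below are of apidaecin, hymenoptaecin and defensin-1, and in no setting did one of these genes pass a status comparison. DESeq2 gave apidaecin no adjusted p, so it could not pass there. The status difference over all bees, negative in each gene in the reported fit, turned positive for apidaecin and hymenoptaecin with total counts alone as scaling (0.20 and 0.040), without lineage L875 (0.47 and 0.68) and in block B alone (0.80 and 1.33). For hymenoptaecin it was -2.48 without a lineage term, -2.20 in block A alone, -1.43 without L882, -1.16 with limma voom and -2.68 with the covariate below. For apidaecin it also turned positive without a lineage term (0.44), with statuses of L888 exchanged (0.0036), with limma voom (0.15) and with its 3 identifiers summed (0.25, and 0.030 within L888). For defensin-1 it did so with the top-10 share of counts as a covariate (0.090), where L888 minus L875 (0.019) and L888 minus L882 (0.034) turned too. The number of genes called for status was 1 without L888 and 1 in DESeq2, which also called 5 in L894, 2 in L875 and 1 in L882. The number called between lineages was 158 with the covariate, 961 without L875, 145 without L888, 48 without L894 and 1345 in DESeq2, against 373 as reported. The cause of these shifts was not tested.

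Among relations, r of apidaecin with defensin-1 was 0.23 with the top-10 share regressed out, 0.018 in block A and -0.69 in block B (unadjusted permutation p = 0.0330). That of hymenoptaecin with apidaecin was -0.0012 with a prior count of 5, -0.054 with group means removed, -0.014 with the summed identifiers and -0.29 in block B. That of hymenoptaecin with defensin-1 was -0.10 with total counts alone, 0.67 in block A (past 0.05) and -0.10 in block B. With the top-10 share, apidaecin gave -0.55 with total counts alone (past 0.05). Hymenoptaecin gave -0.28 there, 0.63 in block A (past 0.05) and -0.047 in block B.

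With each bee left out in turn, the genes called for status were 0 to 1 (1 without sterile L875 bee 3) and those between lineages 145 to 693, more than 1.5 times away from 373 for 14 of the 24 bees. The status difference over all bees ran from -0.74 to 0.95 for apidaecin and from -1.73 to 0.87 for hymenoptaecin, lowest without reproductive L882 bee 1 and highest without sterile L875 bee 3. Within L888 apidaecin ran from -1.69 to 0.38. Within L875 apidaecin ran from -3.07 to 3.50 and hymenoptaecin from -9.94 to 1.47, lowest without reproductive bee 3 and highest without sterile bee 3. Within L894 0 to 1 genes were called (1 without sterile bee 3), apidaecin ran from -0.18 to 1.11 and hymenoptaecin from -1.09 to 0.37. Within L882 the range was -1.20 to 2.92 for apidaecin and -2.66 to 6.53 for hymenoptaecin, lowest without reproductive bee 1 and highest without sterile bee 1, and -1.49 to 0.46 for defensin-1. Between lineages, apidaecin ran from -2.33 to 0.44 for L888 minus L875 and from -1.71 to 0.88 for L894 minus L875, positive without sterile L875 bee 3 alone, and defensin-1 from -0.75 to 0.10 for L882 minus L875. Hymenoptaecin ran from -8.49 to -4.78 for L888 minus L875, from -5.06 to -1.26 for L894 minus L882, from -7.83 to -4.20 for L894 minus L875, from -5.51 to -2.04 for L888 minus L882, from -5.53 to -0.18 for L882 minus L875 and from 0.20 to 0.90 for L894 minus L888. The r of hymenoptaecin ran from -0.11 to 0.049 with apidaecin, from 0.14 to 0.51 with defensin-1 and from 0.092 to 0.57 with the top-10 share, the last 2 highest (and past 0.05) without reproductive L882 bee 3. That of apidaecin with the share ran from -0.52 to -0.25, lowest (and past 0.05) without reproductive L888 bee 1.

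No paired analysis was possible because the labels give the bees no replicate numbers, only a lineage, which is a term of the fits. Tests on parental reads were not run, since the 5 genes were not among the genes of those tables. Depth limits abaecin and defensin-2, whose zeros allow up to 3 counts each, and the apparent division of apidaecin reads limits every value of GB47546.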
